A study of Homo sapiens with 8 samples.

Results

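The long noncoding RNAs described here are the spliced transcripts of 10 small nucleolar RNA (snoRNA) host genes, SNHG1, SNHG3, SNHG5, SNHG6, SNHG7, SNHG8, SNHG12, SNHG15, SNHG16 and GAS5. They were taken by name from the deposited gene table, and all 10 had a row among its 13471 genes. RNA was sequenced from hTERT-RPE1, a telomerase-immortalized human cell line of the retinal pigment epithelium, with or without immunoprecipitation (IP) of hnRNP U. This nuclear protein, known too as SAF-A, binds RNA and chromatin. The study compared interphase with mitosis, in 8 libraries that form 4 groups of 2. The interphase groups, without IP and with IP by an antibody against hnRNP U, came from cells kept for 24 h in 2 mM thymidine, a block to DNA replication. The mitotic groups, again without and with that IP, came from cells given the same block, then 6 h without it, then a night in STLC, which stops the spindle kinesin Eg5 and holds cells in mitosis. All 4 groups therefore share the line and the thymidine block, and the phases also differ in the drug treatment. The extraction protocol, worded alike for all 8 samples, describes a detergent lysate cleared by centrifugation, and RNA left in the pellet is outside these measurements. Since no control-antibody IP is analysed here, RNA held by hnRNP U and RNA carried over on beads cannot be told apart.

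A snoRNA host gene carries snoRNAs inside its introns. After splicing, the excised intron is trimmed to the snoRNA, which enters a ribonucleoprotein that guides the chemical modification or processing of ribosomal RNA. The joined exons of these genes are classed as noncoding. For GAS5 and SNHG1 they are known as substrates of nonsense-mediated decay, which degrades them as they are translated. Several of these genes start with a run of pyrimidines, the 5′ terminal oligopyrimidine (TOP) element shared with ribosomal protein genes, which ties translation of the RNA to growth signals. GAS5 is named for its accumulation on growth arrest, and its RNA is known to bind the glucocorticoid receptor.

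The first bases of some annotated transcripts show a run of this kind. For 7 of the genes, the transcript with the longest opening run is shown, 30 bases from its 5′ end, with the run in capitals (GENCODE release 29, build GRCh38). The coordinates are those of the transcript.
SNHG1 (chr11:62853547-62855479, minus strand): CTCCTgtctgcaggatttacgcgcacgttg
SNHG3 (chr1:28506043-28508270, plus strand): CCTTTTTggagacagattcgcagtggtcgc
SNHG5 (chr6:85677128-85678733, minus strand): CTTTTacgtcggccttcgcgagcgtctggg
SNHG8 (chr4:118278758-118279821, plus strand): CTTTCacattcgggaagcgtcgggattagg
SNHG12 (chr1:28578538-28581873, minus strand): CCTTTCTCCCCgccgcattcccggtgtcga
SNHG16 (chr17:76557769-76560433, plus strand): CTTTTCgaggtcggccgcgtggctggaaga
GAS5 (chr1:173863901-173867989, minus strand): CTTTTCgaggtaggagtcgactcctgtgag
The search asked for a C at the first base of the transcript that opens a run of at least 5 pyrimidines, on the transcript's own strand. Such a transcript was annotated for 8 of the 10 genes (80%), against 6.58% of 58721 genes in the annotation. A gene with many annotated transcripts has more openings that can hold such a run. Counted by transcript, it was 21 of 129 (16.3%), against 2.41% of 206694. For SNHG1 it was 1 of 25 transcripts and for SNHG8 1 of 5. SNHG7 and SNHG15 had none among 4 and 10 annotated transcripts. The 5′ ends are those of the annotation and were not measured here, and all 7 transcripts shown begin inside the span of their annotated gene, downstream of its outermost start. These sequences were chosen for display after the values were seen.

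In the annotation, SNHG1 lies on chromosome 11 (62851988 to 62855914), SNHG3 on chromosome 1 (28505980 to 28510892) and SNHG5 on chromosome 6 (85660950 to 85678748). SNHG6 is on chromosome 8. SNHG7 lies on chromosome 9 (136721366 to 136728184), SNHG8 on chromosome 4 (118278709 to 118279823) and SNHG12 on chromosome 1 (28578538 to 28583132). SNHG15 lies on chromosome 7 (44983023 to 44986961), SNHG16 on chromosome 17 (76557766 to 76565348) and GAS5 on chromosome 1 (173863900 to 173868882). In the deposited table, 9 of the 10 genes share their interval with other rows, 20 of them snoRNAs, and SNHG6 shares with none. Another 3 rows share as well, RCC1 with SNHG3, TRNAU1AP with SNHG12 and GAS5-AS1 with GAS5. How reads were divided between such rows is not given in the sources used here, so the values of these 9 genes carry that uncertainty. The libraries are directional, but whether counting used the strand is not given either, which bears on GAS5 beside GAS5-AS1 and on SNHG7 and SNHG12, both annotated as antisense genes.

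Levels are given as FPKM, that is, fragments scaled by transcript length and by library. Fragment totals per library are unknown, and relative depths read from the steps of low values ran from 0.638 to 1.188. Replicates of a group correlated across all genes at Pearson's r of 0.989 to 0.995. Each of 6 genes known to peak in mitosis (CCNB1, CDC20, PLK1, AURKA, CENPF and HMMR) was called higher in mitosis without IP (median log2 fold change 1.97). Of 10 markers of retinal pigment epithelium, 3 had a row: MITF and OTX2 were at 3.33 FPKM or more in every library, and PMEL, a pigment cell gene, stayed at or below 0.144 FPKM. The labels do not say whether the replicates were separate cultures, so p-values measure only the spread between these libraries, which may be technical.

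Without IP in interphase, SNHG6, SNHG8 and GAS5 were the most abundant of the 10 RNAs and SNHG12 the least, as the plot of levels by library shows. SNHG6 measured 363 and 353 FPKM, SNHG8 225 and 238 FPKM, and GAS5 175 and 189 FPKM. SNHG16 (74.6 and 85.8) and SNHG5 (81.6 and 75.5) followed and overlapped each other; the other neighbours in this order did not overlap. SNHG7, SNHG1 and SNHG3 had means of 56.2 ± 0.782, 49.1 ± 1.56 and 41.9 ± 3.91 FPKM (SD, n = 2), SNHG15 22.1 ± 0.106 and SNHG12 12.8 ± 1.55. Summed over the 10 genes, the level was 1112 ± 19.9 FPKM, of which SNHG6, SNHG8 and GAS5 made up 69.3%. In the interphase IP the sum was 508 ± 13.3 FPKM with 53.5% from these genes. In mitosis it was 865 ± 20.2 FPKM without IP (56.9%), against 489 ± 16.9 in the IP (34.4%). The order differed between the groups. In the interphase IP, SNHG6, SNHG16 and GAS5 lay close together at means of 125, 119 and 114 FPKM, each overlapping the next. In the mitotic IP, SNHG16 came first at 121 ± 13.1 FPKM, above GAS5 at 75.5 ± 9.36 FPKM, without overlap.

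**Figure D1:**
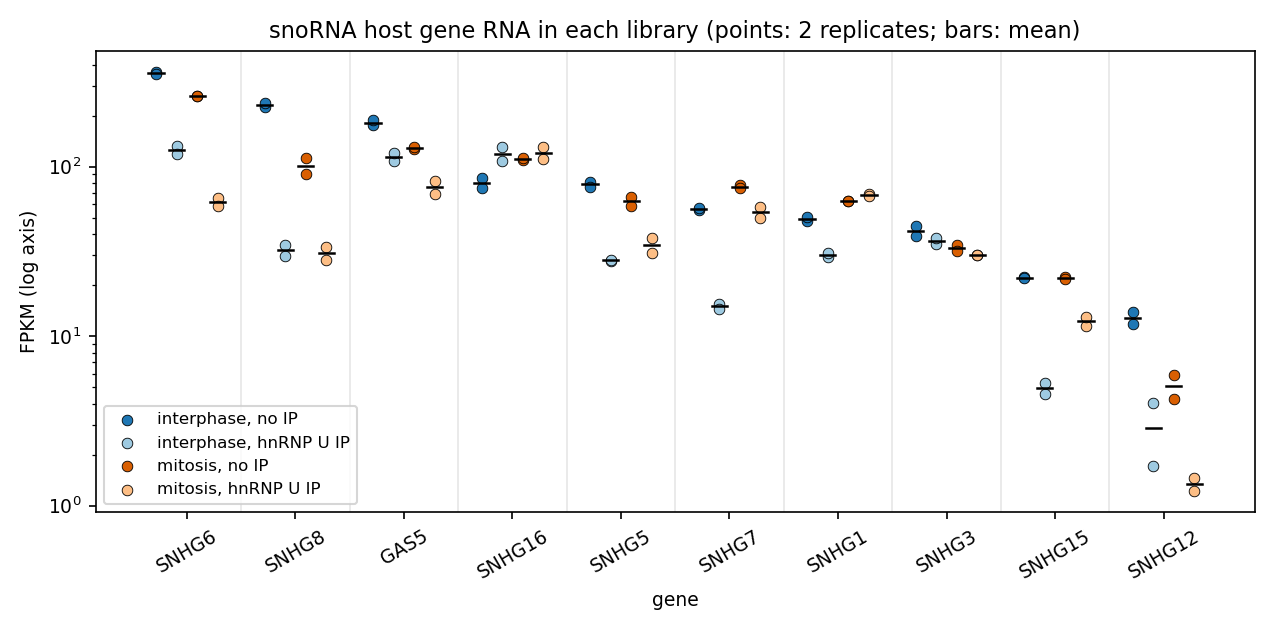
FPKM (log axis) of the 10 snoRNA host genes in each library, ordered by their mean in interphase without IP; points are the 2 replicates of a group and bars their mean. SNHG16 is the only one of the 10 whose interphase IP libraries both lie above the interphase libraries without IP.

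In interphase, the host genes were mostly lower in the hnRNP U IP than without it. Of the 10 host genes, 8 were lower, SNHG16 was higher and SNHG3 was not called (limma on log2(FPKM + 1), adjusted p below 0.05 over all genes). Over all 13471 genes, 37% were called lower and 37.6% higher, 74.6% in all. The median log2 fold change of the 10 genes was -1.48, against 0.017 over all genes, and it was -1.49 and -1.48 in the replicate pairs. The 2 IP libraries lay below both libraries without IP for 9 of the 10 genes and above them for 1; over all genes this held for 42.8% and 44.5%. Values are relative to the RNA in each library, so a lower value is a smaller share of that library.

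SNHG8, host of SNORA24, showed the lowest ratio. It fell from 225 and 238 FPKM without IP to 34.7 and 29.7 in the IP, 13.9% of the level without IP. Its log2 fold change was -2.81 (SE 0.14, limma adjusted p = 5.82e-07), and 2.23% of all genes had a lower value. SNHG15, host of SNORA9, went from 22.2 and 22.0 FPKM to 4.57 and 5.26 FPKM, a log2 fold change of -1.97 (SE 0.11). SNHG7, host of SNORA43, went from 55.7 and 56.8 to 15.6 and 14.5 FPKM (-1.84, SE 0.11). For each of these genes the replicates lay close together and the groups were far apart.

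SNHG12, host of SNORD99 and of 3 box H/ACA snoRNAs with a row here, measured 13.9 and 11.7 FPKM without IP, against 4.01 and 1.72 in the IP. Its IP replicates differed 2.33-fold, the widest spread of the 10 genes in any group, and its log2 fold change of -1.90 had the largest SE, 0.26. SNHG6, a host of SNORD87, went from 363 and 353 to 132 and 118 FPKM (-1.51, SE 0.13). SNHG5, host of SNORD50A, went from 81.6 and 75.5 to 27.7 and 28.2 FPKM (-1.46, SE 0.12). The limma adjusted p was 0.000161 for SNHG12, 6.94e-06 for SNHG6 and 6.54e-06 for SNHG5.

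SNHG1, GAS5 and SNHG3 had smaller values. SNHG1, which carries SNORD22, SNORD27 and SNORD28 among others, went from 48.0 and 50.2 to 29.4 and 30.9 FPKM (log2 fold change -0.69, SE 0.092, limma adjusted p = 0.000122). GAS5, with 6 snoRNA rows here, went from 175 and 189 to 108 and 121 FPKM (-0.67, SE 0.13, adjusted p = 0.00125); after quantile normalization its value was -0.28 with a limma adjusted p of 0.0736. SNHG3, host of SNORA73A and SNORA73B, which act in the processing of the ribosomal RNA precursor, measured 39.1 and 44.7 FPKM without IP, against 34.9 and 37.9 in the IP. Its log2 fold change of -0.20 (SE 0.10) did not pass the threshold (limma adjusted p = 0.119), although the groups did not overlap.

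SNHG16, host of SNORD1C, ran the other way. It measured 74.6 and 85.8 FPKM without IP, against 108 and 130 in the IP, 148% of the level without IP, with a log2 fold change of 0.56 (SE 0.14, limma adjusted p = 0.00542). The call was lost without interphase library 1 without IP (0.46, adjusted p = 0.051) and with trends of length and GC content removed (0.14, adjusted p = 0.331). For reference, the nuclear-retained lncRNAs MALAT1, NEAT1 and TUG1 were each called higher in the IP in both phases, with medians of 1.99 in interphase and 1.52 in mitosis (0.62 and 0.92 with length and GC trends removed).

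In mitosis, 7 of the 10 host genes were lower in the IP than without it, none was called higher, and SNHG1, SNHG3 and SNHG16 were not called. Over all genes, 31.7% were called lower and 32.8% higher, 64.5% in all. The median of the 10 was -0.79, against 0.0053 over all genes. The IP libraries lay below both libraries without IP for 8 of the 10 genes and above for SNHG1, with SNHG16 overlapping; over all genes the shares were 40.1% below and 41.4% above.

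SNHG6 had the lowest mitotic ratio. It fell from 260 and 263 FPKM without IP to 65.3 and 58.4 in the IP, 23.6% of the level without IP, and its log2 fold change was -2.06 (SE 0.13, limma adjusted p = 7.31e-06), with 0.869% of all genes lower. SNHG8 went from 112 and 90.9 to 33.7 and 28.0 FPKM (-1.68, SE 0.14). SNHG12 went from 5.92 and 4.23 to 1.46 and 1.22 FPKM (-1.36, SE 0.26). The limma adjusted p was 1.93e-05 for SNHG8 and 0.00172 for SNHG12, and the groups of all 3 genes were well apart.

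SNHG5, SNHG15 and GAS5 were lower by similar amounts. SNHG5 went from 66.5 and 58.3 to 37.8 and 31.1 FPKM (log2 fold change -0.84, SE 0.12). SNHG15 went from 22.5 and 21.6 to 11.5 and 13.0 FPKM (-0.80, SE 0.11). GAS5 went from 128 and 131 to 82.1 and 68.9 FPKM (-0.77, SE 0.13). The limma adjusted p was 0.000297, 0.000196 and 0.000714 in that order, and no group overlapped. SNHG7 went from 77.7 and 74.7 to 58.1 and 49.6 FPKM (-0.50, SE 0.11, limma adjusted p = 0.00282), and with trends of length and GC content removed this turned to 0.22 (adjusted p = 0.0728).

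The remaining genes stayed near the level without IP. SNHG1 measured 62.5 and 63.1 FPKM without IP, against 69.2 and 66.7 in the IP (log2 fold change 0.11, limma adjusted p = 0.317). SNHG3 measured 34.6 and 31.7 against 30.2 and 29.9 FPKM (-0.14, adjusted p = 0.281 in limma). SNHG16 measured 110 and 113 against 112 and 130 FPKM (0.11, limma adjusted p = 0.52). Of these, SNHG1 and SNHG16 changed sign with length and GC trends removed, to -0.18 and -0.14.

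The difference between the phases was tested directly, as the log2 fold change of the IP in mitosis minus that in interphase. It was positive and called for 5 of the 10 genes, SNHG7, SNHG15, SNHG8, SNHG1 and SNHG5, and negative and called for SNHG6. Over all genes, 27.2% were called positive, 19.9% negative and 47.1% in all. The median of the 10 genes was 0.57, against 0.065 over all genes. Once trends of length and GC content were removed, it was 0.025, below the 0.127 over all genes in that fit. For each of the 6 called genes, both replicate pairs gave the sign of the fit.

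The difference was 1.34 for SNHG7 (SE 0.15, limma adjusted p = 0.000211): the mean in the IP was 26.7% of the mean without IP in interphase and 70.7% in mitosis. For SNHG15 it was 1.16 (SE 0.15, limma adjusted p = 0.000438), with 22.2% and 55.4%. For SNHG8 it was 1.13 (SE 0.20, limma adjusted p = 0.00211), with 13.9% and 30.4%. For SNHG1 it was 0.80 (SE 0.13, limma adjusted p = 0.00127), with 61.4% and 108%. In each of these genes the IP level lay closer to the level without IP in mitosis than in interphase, as the plot of the effect by phase shows.

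SNHG5 and SNHG6 had smaller differences, whose calls depended on single libraries. For SNHG5 the difference was 0.61 (SE 0.17, limma adjusted p = 0.0175), with 35.6% and 55.2%. The call was lost without interphase library 1 without IP (0.56), mitotic library 2 without IP (0.52) or mitotic IP library 1 (0.48), and the value was 0.092 with length and GC trends removed. For SNHG6 it was -0.55 (SE 0.18, limma adjusted p = 0.0323), with 35.0% and 23.6%. The call was lost without any of 6 of the 8 libraries, the exceptions being interphase IP library 2 and mitotic IP library 1. Those 6 values ran from -0.58 to -0.47, and the value was -0.91 with length and GC trends removed. SNHG12 (0.54, SE 0.37), SNHG3 (0.059, SE 0.15), GAS5 (-0.10, SE 0.18) and SNHG16 (-0.45, SE 0.20) did not pass the threshold, with limma adjusted p values of 0.274, 0.775, 0.673 and 0.0924. A p that misses the threshold does not show that these effects were equal in both phases.

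**Figure D2:**
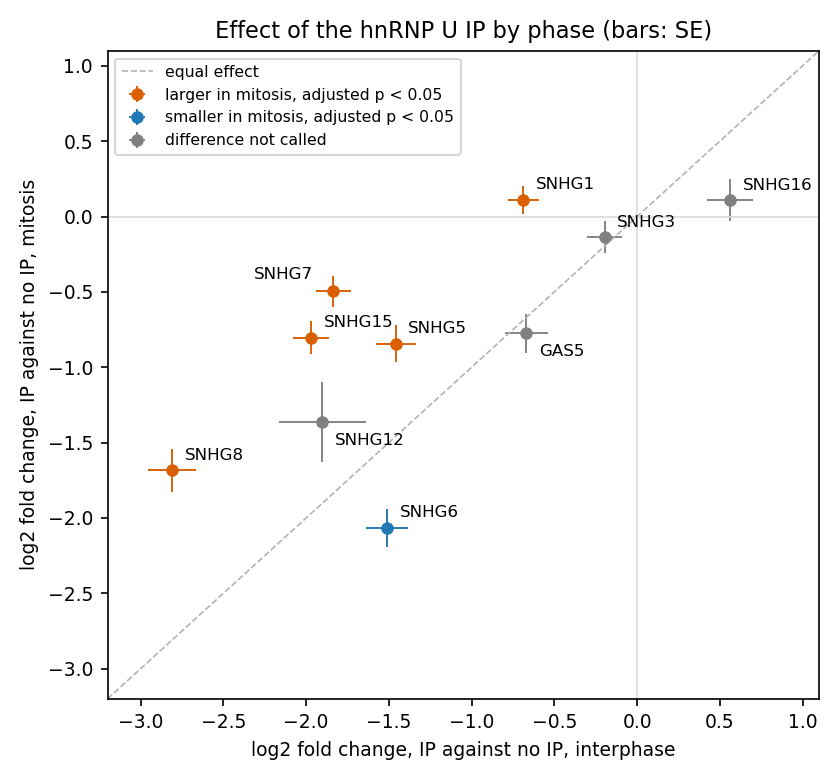
Log2 fold change of IP against no IP (limma on log2(FPKM + 1)) in interphase (x axis) and in mitosis (y axis) for the 10 host genes; bars are SE and the dashed line marks equal effects. SNHG7, SNHG15, SNHG8, SNHG1 and SNHG5 lie above the line with a called difference, SNHG6 lies below it, and SNHG3 and GAS5 lie next to it.

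The libraries without IP give the change between the phases and their drug treatments in the RNA of the cleared lysate, as the protocol is worded. A change in how much of an RNA stays in the pellet cannot be told apart from a change in its level. In bulk samples, fewer cells with an RNA and less of it per cell cannot be told apart either. Of the 10 host genes, 6 were lower in mitosis (SNHG8, SNHG12, GAS5, SNHG6, SNHG5 and SNHG3), 3 were higher (SNHG16, SNHG7 and SNHG1) and SNHG15 was not called. Over all genes, 25.5% were called lower and 26.2% higher, 51.7% in all. The median of the 10 was -0.33, against -0.0023 over all genes. The groups did not overlap for 9 of the 10 genes, 6 below and 3 above, and over all genes 39.4% lay below and 39.5% above.

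SNHG8 and SNHG12 had the largest differences. SNHG8 fell from 225 and 238 FPKM in interphase to 112 and 90.9 FPKM in mitosis, a log2 fold change of -1.19 (SE 0.14, limma adjusted p = 0.000265). SNHG12 fell from 13.9 and 11.7 to 5.92 and 4.23 FPKM (-1.20, SE 0.26, limma adjusted p = 0.0054). Its interval neighbour TRNAU1AP, a gene of selenocysteine transfer RNA function, showed a similar value of -1.01 (limma adjusted p = 0.000604), and the part of shared reads in this was not tested. The other called values lay between -0.49 and 0.47: GAS5 -0.49, SNHG6 -0.45, SNHG5 -0.33, SNHG3 -0.33, SNHG1 0.35, SNHG7 0.43 and SNHG16 0.47. The groups of each of these did not overlap, so both replicate pairs had to give the sign of the fit. The calls of such small values depended on single libraries. Leaving out 1 library also leaves its group with only 1. Without interphase library 1, 0 genes were called higher and 4 lower; without interphase library 2, 3 and 2; without mitotic library 1, 0 and 2; and without mitotic library 2, 1 and 2 (all without IP). SNHG8 and SNHG12 were called lower in each of these.

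In the IP libraries, SNHG7, SNHG15 and SNHG1 were higher in mitosis than in interphase, SNHG6 and GAS5 were lower, and 5 genes were not called. Over all genes, 35.8% were called higher and 25.6% lower, 61.4% in all. The groups did not overlap for 8 of the 10 genes, 4 above and 4 below, and over all genes 44.6% lay above and 34.6% below. SNHG7 measured 15.6 and 14.5 FPKM in the interphase IP and 58.1 and 49.6 FPKM in the mitotic IP, with a log2 fold change of 1.77 (SE 0.11, limma adjusted p = 3.13e-06). SNHG15 went from 4.57 and 5.26 to 11.5 and 13.0 FPKM (1.16, SE 0.11), while its level without IP was 22.2 and 22.0 FPKM in interphase and 22.5 and 21.6 FPKM in mitosis. SNHG1 went from 29.4 and 30.9 to 69.2 and 66.7 FPKM (1.15, SE 0.092). SNHG6 fell from 132 and 118 to 65.3 and 58.4 FPKM (-1.01, SE 0.13), and GAS5 from 108 and 121 to 82.1 and 68.9 FPKM (-0.59, SE 0.13). SNHG8, which was lower in mitosis without IP, measured 34.7 and 29.7 against 33.7 and 28.0 FPKM in the IP, and these groups overlapped (-0.063, limma adjusted p = 0.727). Centring each library on its median lowered the median of all genes in this comparison by 0.11 and called 4 of the 10 genes lower.

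The effect of the IP varied with transcript length and base composition across the table, and these genes span both. Over 13141 annotated genes, the log2 fold change in interphase had a Spearman rho of 0.53 with length and of -0.71 with GC content, both taken from the longest annotated transcript. Across the 10 host genes the same values were 0.37 and -0.60, given as a description over genes that share the same libraries. By that longest transcript, SNHG6 and SNHG8 were the shortest, 648 and 672 nt, and SNHG16 was the longest, 3607 nt. The transcript used need not be the spliced RNA of any of these genes. It has 1 exon for SNHG12 and 2 for SNHG3 and SNHG15. For SNHG1 it has 2768 nt in 5 exons, of a gene span of 3927 nt, and for SNHG16 3607 nt in 3 exons, of 7583 nt. Values with both trends removed rest on these transcripts. SNHG7 had the highest GC content, 65.9%, and SNHG6 the lowest, 42.0%. With both trends removed from each library, 8 of the 10 genes had a called decrease in interphase, and the median was -0.65. Of the 13141 annotated genes, 4519 were called lower in that fit, and their median was -0.063. SNHG7 went from -1.84 to -0.47, SNHG5 from -1.46 to -0.60, SNHG6 from -1.51 to -0.71, SNHG12 from -1.90 to -0.84 and SNHG8 from -2.81 to -1.56. SNHG15 moved from -1.97 to -1.84 and GAS5 from -0.67 to -0.59, and SNHG1 became more negative, from -0.69 to -1.07. In mitosis 7 of the 10 were called lower, with SNHG3 (-0.27) in and SNHG7 out, against 3892 of the 13141. For the difference between phases the calls of SNHG15 (1.07), SNHG1 (0.89), SNHG7 (0.69), SNHG8 (0.51) and SNHG6 (-0.91) held and that of SNHG5 was lost.

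**Figure D3:**
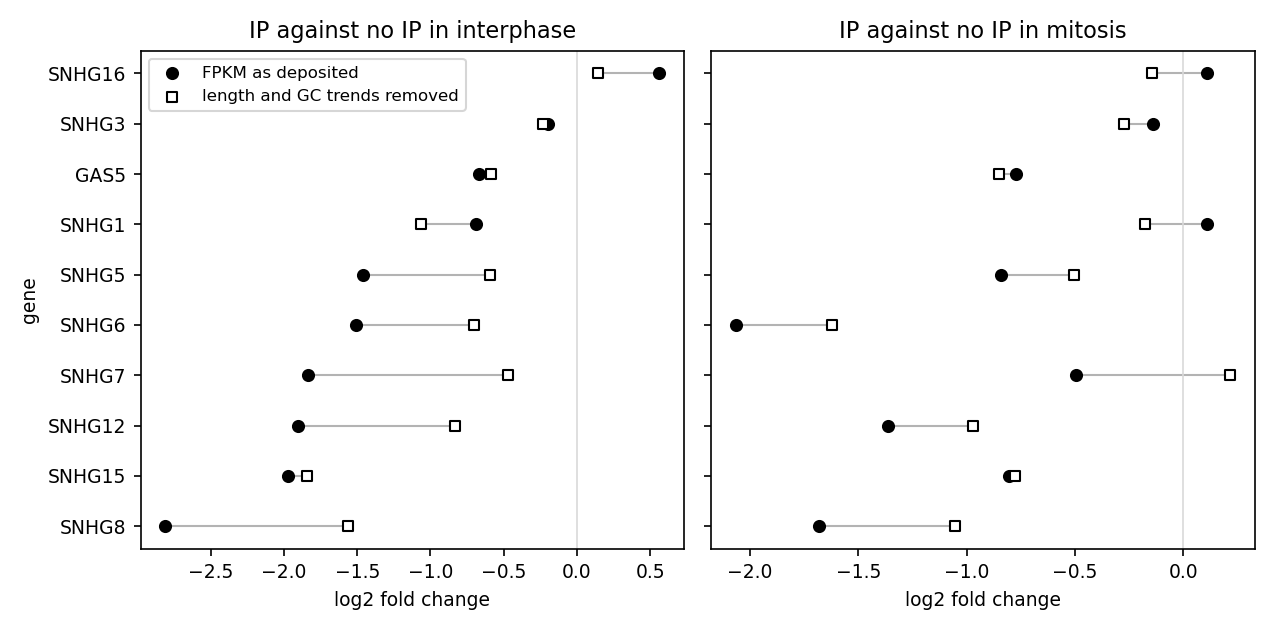
Log2 fold change of IP against no IP in interphase (left) and mitosis (right) for the 10 host genes, from FPKM as deposited (filled circles) and after each library's trends on length and GC content of transcripts were removed (open squares). SNHG7 moves from -1.84 to -0.47 in interphase and across 0 in mitosis, and SNHG15 from -1.97 to -1.84 and from -0.80 to -0.77.

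The snoRNAs of the same loci were set beside their hosts. Of 37 listed snoRNAs, 20 had a row in a host's interval. Shown here, for hosts that carry the results above, are the box C/D snoRNAs SNORD1C and SNORD99, which guide 2′-O-methylation, with the D box in capitals, and the box H/ACA snoRNAs SNORA24 and SNORA9, the class that guides pseudouridylation, with the ACA box in capitals (GENCODE release 29, GRCh38).
SNORD1C in SNHG16 (chr17:76558791-76558868, plus strand): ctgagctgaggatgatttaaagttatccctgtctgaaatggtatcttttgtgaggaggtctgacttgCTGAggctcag
SNORD99 in SNHG12 (chr1:28578749-28578822, minus strand): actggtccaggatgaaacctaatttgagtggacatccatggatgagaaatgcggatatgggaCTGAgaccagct
SNORA24 in SNHG8 (chr4:118279190-118279320, plus strand): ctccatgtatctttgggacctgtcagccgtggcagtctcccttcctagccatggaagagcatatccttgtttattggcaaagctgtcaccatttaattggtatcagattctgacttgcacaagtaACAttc
SNORA9 in SNHG15 (chr7:44985378-44985510, minus strand): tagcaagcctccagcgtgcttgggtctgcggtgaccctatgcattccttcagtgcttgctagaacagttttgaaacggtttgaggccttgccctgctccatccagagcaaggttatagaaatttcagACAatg
These RNAs are far shorter than their hosts, and their replicates agreed less well. The ratio of the higher to the lower replicate had a median between 1.25 and 2.12 by group and reached 6.94 in the interphase IP, against medians of 1.04 to 1.17 for the hosts.

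Without IP, 11 of the 20 snoRNAs were higher in mitosis and none was called lower (median log2 fold change 1.98), against 26.2% and 25.5% of all genes. These values too are of the cleared lysate, so less RNA left in the pellet and a higher level cannot be told apart. The snoRNA value lay above that of its own host in 19 of 20 pairs, by a median of 2.43. SNORD99 measured 41.5 and 12.4 FPKM in interphase and 1167 and 956 FPKM in mitosis (log2 fold change 5.47, limma adjusted p = 4.84e-05), while its host SNHG12 fell. SNORD1C went from 58.7 and 70.0 to 519 and 466 FPKM (2.92, limma adjusted p = 1.11e-05), and its host SNHG16 rose by 0.47. Of the GAS5 snoRNAs, SNORD77 (3.48), SNORD47 (3.16), SNORD80 (3.11) and SNORD74 (3.07) were called higher, and SNORD79 (1.49) and SNORD76 (0.38) were not. In SNHG1, SNORD28 (3.18) and SNORD27 (1.79) were called and SNORD22 (2.20, limma adjusted p = 0.0812) was not.

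Among the other hosts, SNORA73B in SNHG3 (2.08), SNORA16A in SNHG12 (2.07) and SNORD50A in SNHG5 (1.06) were called higher in mitosis without IP. SNORA73A (1.88), SNORA61 (1.62), SNORA44 (1.52), SNORA9 (1.45) and SNORA24 (1.17) had positive values that were not called. SNORA24 measured 1463 and 1284 FPKM in interphase and 5509 and 1717 FPKM in mitosis, so the groups did not overlap but the mitotic replicates lay far apart. SNORA43 in SNHG7 was the exception in sign (-0.42, limma adjusted p = 0.3), and its host was higher by 0.43. Without interphase library 1 or mitotic library 1, 7 snoRNAs were called higher, and without interphase library 2 or mitotic library 2, 9 and 10 (all without IP). Length and GC content could be assigned to 13 of the 20, too few to test that dependence for the list. Among those 13, removal of these trends ended the calls of SNORD27 (0.0031, limma adjusted p = 0.995) and SNORD28 (1.37, limma adjusted p = 0.191). SNORD99 (4.09), SNORA73B (1.81), SNORD1C (1.48) and SNORA16A (1.23) were called higher with them removed, as was SNORA73A (1.66), and SNORA43 was called lower (-1.03). After quantile normalization 9 of the 20 were called higher, and SNORA73B (1.26, limma adjusted p = 0.199) and SNORA16A (1.64, limma adjusted p = 0.0918) were not.

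In the interphase IP 4 of the 20 snoRNAs were lower, SNORD77 (-1.62), SNORD28 (-1.59), SNORA43 (-1.09) and SNORD1C (-0.49), none was called higher, and the median was -0.90. Over all genes, 37% were called lower and 37.6% higher. These calls depended on the processing. After quantile normalization SNORD77 (-1.18) and SNORD28 (-1.53) were lower, SNORD47 was called higher (0.84, limma adjusted p = 0.0203), SNORA43 was 0.21, and the median was -0.49. With length and GC trends removed, none of the 13 with a value was called lower, SNORD27 was called higher (1.47, limma adjusted p = 0.00667), and SNORA43 (0.47) and SNORD1C (0.48) were positive. The replicate pairs gave medians of -0.27 and -1.44, and without interphase IP library 2 the median was -0.27 with 2 called lower; 2 were also called lower without interphase library 2 without IP. The snoRNA lay above its host in 12 of 20 pairs. In mitosis 10 were lower and SNORD1C was higher (0.56, limma adjusted p = 0.027), with a median of -1.73, against 31.7% lower and 32.8% higher over all genes, and the snoRNA lay above its host in 5 of 20 pairs. Without mitotic library 1 without IP, 6 were called lower, and the SNORD1C call was lost without any of the 4 mitotic libraries. SNORD47, for example, measured 1210 and 1379 FPKM in mitosis without IP, and 432 and 254 FPKM after it (-1.96, limma adjusted p = 0.000157; -1.045 after quantile normalization). In interphase it measured 138 and 150 against 198 and 161 FPKM (0.31, limma adjusted p = 0.294, and called higher after quantile normalization as given above). The difference between phases was called negative for 4 of the 20, SNORD47 (-2.27), SNORD50A (-2.11), SNORD80 (-2.11) and SNORD27 (-1.79). It was called positive for SNORD1C (1.05). Over all genes, 19.9% were called negative and 27.2% positive, so the negative share was near that of all genes. After quantile normalization the mitotic median was -0.65, with 5 called lower. With length and GC trends removed, SNORD28, SNORA43, SNORA73A, SNORA73B and SNORD99 lost their mitotic calls, SNORA43 turned to 0.088 and SNORD99 to 0.33, and SNORD1C was 2.04. The difference between phases of SNORD27 then lost its call (-1.03, limma adjusted p = 0.136).

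**Figure D4:**
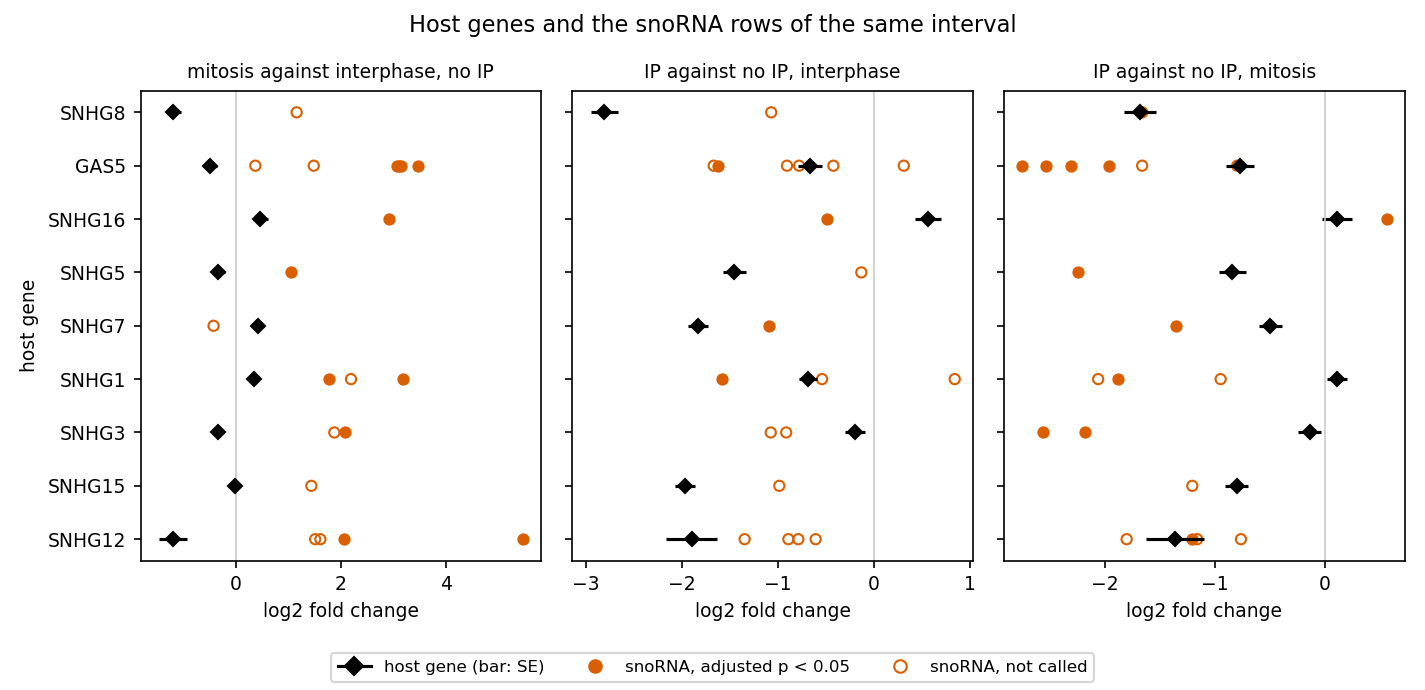
Log2 fold change of the host genes (diamonds, bars SE) and of the snoRNA rows in the same interval (circles, filled where the limma adjusted p is below 0.05), for mitosis against interphase without IP (left), IP against no IP in interphase (middle) and in mitosis (right). Without IP, 19 of 20 snoRNAs lie to the right of their host; SNORD99, at 5.47, lies farthest from it.

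The rows that share an interval with a host but are no snoRNA did not all follow it. RCC1, the chromatin-bound exchange factor of Ran, was lower in the interphase IP by a log2 fold change of -0.73 (limma adjusted p = 0.000367), where SNHG3 measured -0.20. RCC1 was higher in mitosis without IP (0.64), where SNHG3 was lower (-0.33). TRNAU1AP was lower in the interphase IP (-0.84) but measured 0.11 in the mitotic IP, where SNHG12 measured -1.36. GAS5-AS1 stayed at or below 0.977 FPKM in each library.

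The other noncoding snoRNA hosts were read from a list of 21, of which 16 had a row. In the interphase IP 9 were lower and 3 higher (median -0.67), against 37% and 37.6% of all genes. SNHG9 had the largest decrease, from 23.2 and 30.7 FPKM without IP to 0.405 and 0.933 in the IP (log2 fold change -4.07, SE 0.20, limma adjusted p = 5.37e-07), and MEG3, an imprinted lncRNA, the largest increase (0.89). With length and GC trends removed, 5 were lower and 5 higher in the interphase IP. In mitosis 6 were lower and 2 higher in the IP, with a median of -0.073, against 31.7% and 32.8% of all genes, and without IP 8 were lower in mitosis and 3 higher, against 25.5% and 26.2%. Of 27 protein-coding snoRNA hosts, 12 rose and 12 fell in the interphase IP (median 0.12), shares near those of all genes, or 5 and 10 with length and GC trends removed. IPO7, a nuclear import receptor, rose by 1.59, and GNB2L1, which encodes the ribosomal scaffold RACK1, had -1.86.

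Genes of the TOP class were read from 2 lists, and their first bases were not examined. The ribosomal protein list was made by symbol and includes paralogs such as RPL39L and RPS27L. Values for both lists keep the trends of length and GC content. Of 78 ribosomal protein genes, 69 were lower and 1 higher in interphase, with a median of -2.38, against 37% lower and 37.6% higher over all genes. RPS29 had -4.56 and RPL22 had 0.36. In mitosis the counts were 69 and 1, against 31.7% and 32.8% of all genes, and the median was -1.44. The difference between phases was called positive for 51 and negative for 1, against 27.2% and 19.9% of all genes, with a median of 1.01. Of 19 other TOP genes of translation, 10 were lower and 4 higher in the interphase IP (median -0.64), against 37% and 37.6% of all genes. Their values ran from FAU (-3.32), whose product is processed to a ribosomal protein, to the initiation factor gene EIF4B (1.03). After quantile normalization these counts were 7 and 7.

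The proteins that act on these RNAs were read from the same comparison. Of 16 genes of snoRNP proteins and assembly factors, 11 were lower and 3 higher in the interphase IP (median -0.95), against 37% and 37.6% of all genes. NOP10, a core protein of box H/ACA particles, had -3.51, and NAF1, an assembly factor of the same particles, had 1.09. These snoRNP values keep the trends of length and GC content. Without IP, 7 of the 16 were higher in mitosis and 4 lower, against 26.2% and 25.5% of all genes. Of 15 nonsense-mediated decay genes, 7 had a higher and 5 a lower level in the interphase IP (median -0.091), near the 37.6% higher and 37% lower of all genes. With length and GC trends removed the counts were 2 and 5. The kinase gene SMG1 had 1.55 and MAGOH, a subunit of the exon junction complex, -2.07. Without IP, 8 of the 15 were higher in mitosis and 1 lower, against 26.2% and 25.5%.

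The average pattern of the host genes over the 8 libraries, the mean of their standardized log2 values, was compared with 5819 other rows with a mean of at least 10 FPKM. The rows most like it were EVA1B (Pearson's r 0.998), RPL27 (0.996), ARL6IP4 (0.996), ZFAS1 (0.996) and RPS29 (0.995), a description over 8 libraries. RPL27 and RPS29 encode ribosomal proteins, and ZFAS1 is itself a noncoding snoRNA host. ZFAS1 measured 327 and 405 FPKM in interphase without IP and 56.3 and 69.7 FPKM in the IP. In mitosis it measured 235 and 251 FPKM, and 85.6 and 73.0 FPKM in the IP. The 10 genes themselves differed in how closely they followed their average, from SNHG5 (0.99) and SNHG8 (0.97) through SNHG1 (0.38) to SNHG16 (-0.72).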

How the data were processed

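RNA was sequenced from 8 libraries of hTERT-RPE1 cells, 2 in each of 4 groups, as directional libraries depleted of ribosomal RNA, per the labels' protocols. The deposited gene table (build hg38) holds FPKM and, made by the authors, ratios of FPKM columns with the same replicate number, per the file headers. TopHat and StringTie appear in the submitters' processing notes, with no role or version. A table of lncRNAs on hg19 was not used here, because it carries no gene names. The 10 host genes and all lists were chosen with earlier results of these data known. Of 13471 genes, 97.55% matched GENCODE release 29 by symbol or older symbol. The table holds no 0.

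Log2(FPKM + 1) of all genes was fitted with limma 3.58.1 in R 4.3.3 (lmFit, eBayes with trend; 4 group coefficients, 8 libraries, 4 residual degrees of freedom), without a filter. Benjamini-Hochberg adjustment ran over all genes in each of 5 comparisons, with a threshold of 0.05. Fold changes on this scale understate changes of low genes. The fit was tested on simulated data. Depth is unknown, so no counting interval is given.

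All 10 host genes are named. Each other list is given by counts, its median and the called genes with the largest rise and fall in the interphase IP, and each snoRNA in a host's interval is named. SNORA66, which was listed, was left out after its row proved to lie at another locus. Alternatives were a pseudocount of 0.1, a filter at a mean of 1 FPKM, quantile normalization, median centring, a replicate block, fits of the compared groups alone, removal of length and GC trends, and leaving out each library.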

Additional observations from a re-analysis of the deposited data

Results flagged for a closer look

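For 6 of the 10 host genes the effect of the IP differed between the phases by a test of the difference itself (limma interaction, adjusted over all genes). The log2 fold change of the IP in mitosis minus that in interphase was 1.34 for SNHG7, 1.16 for SNHG15, 1.13 for SNHG8, 0.80 for SNHG1, 0.61 for SNHG5 and -0.55 for SNHG6. With trends of length and GC content removed, the SNHG5 value was 0.092 (adjusted p = 0.693), and the others were 0.69, 1.07, 0.51 and 0.89 for SNHG7, SNHG15, SNHG8 and SNHG1 and -0.91 for SNHG6, still called by limma. SNHG6 was lower in the IP in both phases and its value lost its call without 6 of the 8 libraries in turn.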

How the results depend on the processing

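Over the alternatives, 656 values of the 10 genes kept their direction and their side of the threshold, 21 gained a call, 43 lost one and 20 changed sign; the cause was not tested. Many of the 656 could not change direction. The replicate block and the fits of the compared groups alone left each log2 fold change as it was, as did leaving out a library outside the comparison. With length and GC trends removed, 0 genes were higher in the interphase IP, 3 were lower in mitosis without IP and 5 were lower in mitosis in the IP. In that setting the mitotic IP values of SNHG1, SNHG7 and SNHG16 became -0.18, 0.22 and -0.14. The differences between phases of SNHG3 and SNHG12 became -0.042 and -0.14, and mitosis against interphase without IP became 0.0015 for SNHG5 and 0.029 for SNHG15. After quantile normalization the difference between phases was negative for 3 genes, and mitosis in the IP was lower for 4. SNHG1 in the mitotic IP was then -0.10, the difference of SNHG3 -0.086, and SNHG16 in the IP across phases -0.35. Median centring gave 4 lower genes in that last comparison, with SNHG16 at -0.087.

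Replicate numbers 1 and 2 recur in each group. Deviations of same-numbered libraries correlated at 0.088 to 0.53 across genes. The authors' ratio columns pair libraries by number, and the labels tie a number to no shared culture, batch or day. With the replicate block, the difference between phases was negative for 2 genes and mitosis in the IP was lower for 4; the other counts of the 10 genes stayed within 1.5 times. It called 17 of the 20 snoRNAs higher in mitosis without IP, 15 lower in the mitotic IP and 7 lower in the interphase IP. Of all 13471 genes, the block called 3825, 4480 and 5157 in that order, so the 7 of 20 were near the share of all genes.

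Leaving out 1 library gave 0 to 1 higher and 8 lower genes in the interphase IP, and 0 higher and 7 lower in the mitotic IP. The difference between phases was positive for 4 to 6 genes and negative for 0 to 1. Mitosis without IP was higher for 0 to 3 and lower for 2 to 6, and mitosis in the IP higher for 3 to 4 and lower for 2 to 3. Sign changes were SNHG16 in the mitotic IP (-2.873e-05 without mitotic IP library 2), the difference of SNHG3 (from -0.034 to 0.15; negative without interphase library 2 or, at -0.0035, mitotic library 2, both without IP) and that of GAS5 (from -0.23 to 0.021, without mitotic IP library 2). SNHG15 across phases without IP ran from -0.031 to 0.021. Across phases in the IP, SNHG8 ran from -0.19 to 0.066 and SNHG16 from -0.11 to 0.16; without interphase IP library 1 they were 0.046 and -0.11, and without mitotic IP library 2 0.066 and -0.088. A group left with 1 library was taken to vary like the others. Unknown depth limits the precision of SNHG12 and the snoRNAs.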
